A study of Mus musculus with 15 samples.

Results

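The genes described here are the 2 chains of the type I interferon receptor (Ifnar1, Ifnar2), the transcription factor Stat2 and 6 interferon regulatory factors (Irf1, Irf3, Irf5, Irf7, Irf8, Irf9). They were matched by symbol to the deposited count table of mouse submandibular gland with no threshold on their values, though the set was drawn up with earlier results of these data known, and are 9 of its 21013 gene symbols. All 9 passed the filter on low counts, which left 16042 genes.

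RNA was sequenced from 15 submandibular glands of wildtype male C57BL/6 mice aged 8 to 10 weeks, in 5 groups of 3. NT glands had no treatment. IR_4d and IR_30d glands had 15 Gy delivered to the gland region and were taken on day 4 or day 30. IR_iEV_4d and IR_iEV_30d glands had the same irradiation plus iEVs put into the gland once a week from day 1, and were taken on the same days. Collection day thus goes together with the number of iEV doses, and these cannot be told apart. What iEV stands for is not given in the labels, while the series title names extracellular vesicles of mesenchymal stem cells. The labels name no irradiated group injected with vehicle, no group given iEVs without irradiation, and no collection day for NT, so injection and iEVs cannot be told apart, nor can irradiation and age at collection. They do not say that each library is its own mouse, so p-values cover the variation among these libraries, part of which may be technical.

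Type I interferons bind a receptor made of IFNAR1 and IFNAR2, whose kinases TYK2 and JAK1 phosphorylate STAT proteins. STAT2 and IRF9 are subunits of the complex ISGF3, which binds interferon-stimulated response elements (ISRE) and switches on antiviral genes, among them Irf7 itself. IRF3 is a constitutive factor activated by nucleic acid sensors, IRF7 amplifies interferon production, IRF1 acts largely downstream of interferon gamma, whose signal reaches genes at gamma-activated sites (GAS), and IRF5 and IRF8 are best known from myeloid cells.

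The promoters of 4 members are shown because their genes differ in how far they moved: Irf7 moved most, Stat2 and Irf8 moved less, and Irf1 passed in none of the comparisons. The sequences are from RefSeq on build GRCm38.p6, 250 bases before to 50 after the annotated start, 5′ to 3′ on the gene's strand. All 9 members had an entry. Capitals mark matches to the ISRE core (GAAA, any 2 bases, GAAA) or to the GAS element TTCNNNGAA on either strand. Of 32851 promoters of the same length, 3.44% held the ISRE core and 8.3% the GAS element. Irf1 and Irf8 have 2 annotated starts each, and the first is shown.
Irf7, chr7:141266375-141266674, minus strand: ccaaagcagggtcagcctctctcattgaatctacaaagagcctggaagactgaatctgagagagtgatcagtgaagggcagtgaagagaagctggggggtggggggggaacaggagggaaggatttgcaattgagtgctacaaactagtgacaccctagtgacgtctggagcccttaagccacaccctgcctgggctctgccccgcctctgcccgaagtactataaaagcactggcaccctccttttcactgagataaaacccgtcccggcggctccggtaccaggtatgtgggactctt
Stat2, chr10:128270248-128270547, plus strand: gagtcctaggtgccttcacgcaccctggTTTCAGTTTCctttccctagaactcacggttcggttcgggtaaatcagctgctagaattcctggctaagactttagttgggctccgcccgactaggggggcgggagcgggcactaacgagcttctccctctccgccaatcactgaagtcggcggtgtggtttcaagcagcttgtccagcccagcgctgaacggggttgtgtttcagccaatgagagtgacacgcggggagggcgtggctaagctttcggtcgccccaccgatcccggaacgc
Irf1, chr11:53769764-53770063, plus strand: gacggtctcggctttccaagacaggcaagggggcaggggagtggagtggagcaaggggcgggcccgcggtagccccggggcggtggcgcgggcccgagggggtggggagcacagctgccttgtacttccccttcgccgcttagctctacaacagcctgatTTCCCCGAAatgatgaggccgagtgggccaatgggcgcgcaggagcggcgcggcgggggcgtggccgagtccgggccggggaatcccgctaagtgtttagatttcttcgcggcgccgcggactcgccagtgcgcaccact
Irf8, chr8:120736108-120736407, plus strand: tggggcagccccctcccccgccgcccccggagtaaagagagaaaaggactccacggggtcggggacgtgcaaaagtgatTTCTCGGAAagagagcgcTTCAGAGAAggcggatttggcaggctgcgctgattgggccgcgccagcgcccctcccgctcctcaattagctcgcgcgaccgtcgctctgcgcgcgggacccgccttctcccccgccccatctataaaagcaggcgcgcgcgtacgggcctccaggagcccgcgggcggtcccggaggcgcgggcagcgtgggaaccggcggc
The Stat2 window held 1 ISRE core, starting at position -222 from the start site and written here on the opposite strand. The Irf1 window held 1 GAS element at position -90 and the Irf8 window held 2. No match of either motif lay in the Irf7 window, or in those of Irf3, Irf5 and Irf9. The Ifnar1 and Ifnar2 windows held 1 GAS element each, at positions -5 and -214. These are matches of letters in a short window and are not bound sites, and no match says only that these letters are not in this window.

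Total counts ran from 29082798 to 52201098 per library, and each member had at least 65 counts in every library. Markers of granular convoluted tubules, the duct segment that defines the rodent submandibular gland, averaged 11.06 to 12.36 on the log2 CPM scale in all 15 libraries (CPM, read counts relative to the TMM-scaled library total). Markers of the neighbouring sublingual gland averaged 6.00 to 8.52 in 6 libraries, namely NT replicate 1, IR_4d replicates 1 and 2, IR_iEV_4d replicates 2 and 3 and IR_iEV_30d replicate 2, and 0.20 to 2.64 in the other 9. These 6 are called sublingual-rich. Many of the results that rest on them, though not all, are also given without them. The tubule markers summed to 117708 to 124714 CPM in IR_30d, above the 42454 to 82404 CPM of all other libraries. Parotid markers summed to 19.9 to 87.0 CPM in untreated glands, and on day 4 to 222 to 7102 CPM after irradiation alone and 1611 to 6578 with iEVs. For adipose markers the same sums were 55.0 to 75.6, 48.9 to 237 and 112 to 544 CPM. In whole tissue, fewer cells of a type and less RNA per cell cannot be told apart.

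Irf7 was the member that moved most. It was lowest in irradiated glands on day 4, higher in iEV-treated glands of that day and highest in irradiated glands on day 30. Of the 9 members, 1 was called in IR_4d against NT (Irf7, lower), where 1.4% of all tested genes were called in either direction and 0.561% were called lower. In IR_30d against NT 1 was called (Irf7, higher), beside 4.48% of all genes in either direction and 3.19% higher. In IR_iEV_4d against IR_4d 1 was called (Irf7, higher), beside 0.0312% of all genes, which is 5 genes. In IR_30d against IR_4d 5 were called, all higher (Irf7, Irf9, Irf8, Irf5, Stat2), beside 6.81% of all genes in either direction and 4.81% higher. Called means an adjusted p under 0.05 in edgeR's quasi-likelihood test. The shares of all genes given here and below for each comparison are also those to read beside the list counts. At an unadjusted p under 0.05, 1854 of the 16042 genes passed in IR_4d against NT and 2618 in IR_30d against NT. The same count was 1093 in IR_iEV_4d against IR_4d and 3181 in IR_30d against IR_4d. List counts at that level are to be read beside these.

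No member was called in the other 3 group comparisons. For IR_iEV_30d against IR_30d, where 0.798% of all genes were called, edgeR and DESeq2 both called 0 members, and 3 had an unadjusted p under 0.05 (12.9% of all genes), all lower in the iEV group (Stat2, Irf7, Irf8). For IR_iEV_4d against NT (2.31% of all genes) both tools called 0, and 2 had an unadjusted p under 0.05 (16.6% of all genes), Stat2 at 0.25 and Irf8 at -0.35 on the log2 scale. Without NT replicate 1, Irf8 was called lower there (log2 -0.51, adjusted p = 0.00539). For IR_iEV_30d against NT (1.1% of all genes) edgeR called 0 and DESeq2 called 1, Irf7, and 3 had an unadjusted p under 0.05 (Irf7, Irf9, Irf5), as did 12.9% of all genes. The comparisons share groups: IR_4d enters 3 of them and IR_30d enters 3, so their values stand side by side and are not independent of each other.

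**Figure D1:**
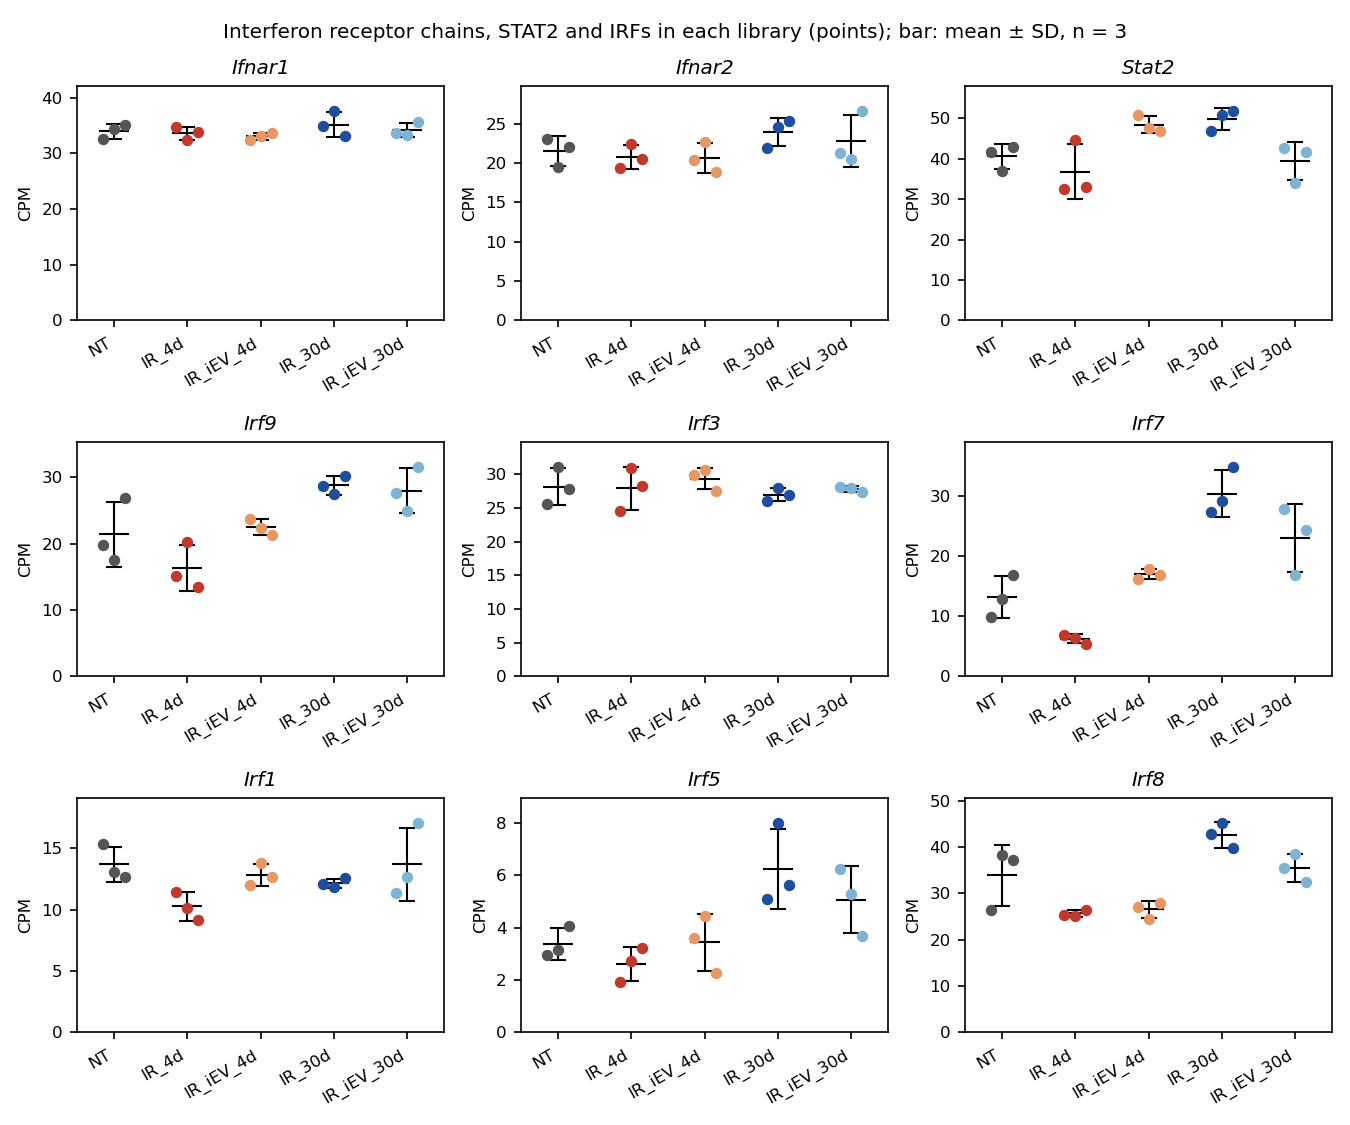
Level of each of the 9 genes in CPM (vertical axes, from 0) in the 15 libraries, by group, with 1 point per library and bars for the mean and SD of 3. The Irf7 points of IR_4d lie between 5.49 and 6.92 CPM, below the points of every other group, while those of Ifnar1 lie between 32.4 and 37.6 CPM in every group.

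Of the receptor chains, Ifnar1 had nearly the same level in every gland and Ifnar2 ranged more widely. Ifnar1, the low-affinity signalling chain, had 32.5, 34.4 and 35.2 CPM in NT, 34.7, 32.4 and 33.9 in IR_4d, and 32.4, 33.1 and 33.7 in IR_iEV_4d. It had 34.9, 37.6 and 33.1 CPM in IR_30d and 33.6, 33.3 and 35.6 in IR_iEV_30d. All 5 groups overlapped, the highest library was 1.16-fold above the lowest, and the SD of its log2 CPM ranked 16009 of 16042 genes. Its log2 change was -0.02 in IR_4d against NT (95% interval -0.18 to 0.15) and 0.05 in IR_30d against NT (-0.11 to 0.21). For iEV-treated against irradiated glands it was -0.03 on day 4 (-0.19 to 0.13) and -0.04 on day 30 (-0.20 to 0.12).

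Ifnar2, the ligand-binding chain, had 23.1, 19.5 and 22.1 CPM in NT, 19.4, 22.4 and 20.5 in IR_4d, and 20.4, 22.7 and 18.8 in IR_iEV_4d. It had 21.9, 24.5 and 25.3 CPM in IR_30d and 21.2, 20.5 and 26.6 in IR_iEV_30d. The highest library was 1.41-fold above the lowest. Its groups overlapped in every comparison, and no change passed the test. Of its intervals against NT, the one that reached farthest from 0 ran from -0.09 to 0.39 on the log2 scale, in IR_30d.

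Of the 7 other receptor chains and kinases, all tested, 1 rose in IR_30d against NT and 0 passed in IR_4d against NT or in either comparison of iEV-treated with irradiated glands by edgeR. In the 3 comparisons with none, DESeq2 called 2, 0 and 2, and an unadjusted p under 0.05 was met by 2 lower, by 2 higher, and by 1 higher and 1 lower. The list medians were 0.10 in IR_30d against NT and -0.21 in IR_4d against NT, beside a median near 0 over all genes (-0.0038 and -0.0032). Jak1, the kinase bound to IFNAR2, went from 94.7 ± 4.20 CPM in NT to 118 ± 2.29 in IR_30d (SD, n = 3), a log2 change of 0.32 ± 0.08 (SE, adjusted p = 0.0209). That call was lost without NT replicate 1 or 2 or any 1 of the 3 IR_30d libraries (log2 0.29 to 0.34, adjusted p 0.0529 to 0.0871), with the sublingual-rich libraries left out (0.27, adjusted p = 0.14) and with sublingual and adipose marker levels as covariates (0.32, adjusted p = 0.058). Tyk2, the kinase bound to IFNAR1, had 24.9 ± 0.242 CPM in NT and 30.6 ± 2.51 in IR_30d, and missed the threshold (0.30 ± 0.08, adjusted p = 0.0505). DESeq2 called it (adjusted p = 0.0153), and so did edgeR without IR_30d replicate 3 (0.36, adjusted p = 0.0497). In IR_30d against IR_4d, Jak1 (0.32 ± 0.08, adjusted p = 0.0155) and the interferon gamma receptor chain Ifngr1 (0.43 ± 0.09, adjusted p = 0.0085) were higher. The Ifngr1 call was lost, at much the same size, with these covariates (0.42, adjusted p = 0.0647) and with the sublingual-rich libraries left out (0.45, adjusted p = 0.219). There the Jak1 call was lost without IR_4d replicate 2 or 3 or IR_30d replicate 1 or 2 (adjusted p 0.052 to 0.0643) and, at 0.34, with the sublingual-rich libraries left out (adjusted p = 0.174). Of 11 interferon ligand genes looked up, Ifng had 6 counts in all and was listed at 0 in 11 libraries, too few to test. The other 10 had no row under these symbols in the count table, so their levels cannot be read here.

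Among the ISGF3 subunits, Irf9 and Stat2 were both higher in irradiated glands on day 30 than on day 4. Irf9, the subunit that contacts DNA, had 19.8, 17.5 and 26.9 CPM in NT, 15.1, 20.3 and 13.5 in IR_4d, and 23.7, 22.4 and 21.3 in IR_iEV_4d. It had 28.6, 27.4 and 30.2 CPM in IR_30d and 27.6, 24.9 and 31.5 in IR_iEV_30d. Every day 30 library except IR_iEV_30d replicate 2 lay above every NT and day 4 library. The order of means was IR_4d, NT, IR_iEV_4d, IR_iEV_30d and IR_30d, and of neighbours in it, IR_4d and NT overlapped, as did NT and IR_iEV_4d, and both day 30 groups.

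Irf9 rose by 0.82 ± 0.16 on the log2 scale in IR_30d against IR_4d (adjusted p = 0.00395, groups not overlapping). With sublingual and adipose marker levels as covariates that change was 0.73 and missed the threshold (adjusted p = 0.0621). In IR_30d against NT its log2 change was 0.42 ± 0.15 (adjusted p = 0.149), and without NT replicate 3 it was called (0.63, adjusted p = 0.0262). In IR_iEV_4d against IR_4d it was 0.46 ± 0.16 (unadjusted p = 0.00898, adjusted p = 0.607), with all 3 treated libraries above all 3 others.

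Stat2 had 41.7, 37.0 and 42.9 CPM in NT, 32.6, 44.5 and 33.0 in IR_4d, and 50.7, 47.6 and 46.9 in IR_iEV_4d. It had 46.8, 50.8 and 51.7 CPM in IR_30d and 42.7, 34.0 and 41.5 in IR_iEV_30d. IR_iEV_4d and IR_30d stood highest and overlapped each other, and the other 3 groups lay below them and overlapped among themselves. Stat2 was called in IR_30d against IR_4d alone (0.44 ± 0.12, adjusted p = 0.0279). That call was lost without IR_4d replicate 1 or 3 or IR_30d replicate 2 or 3 (log2 0.37 to 0.42, adjusted p 0.0916 to 0.135) and with the 2 tissue covariates (0.37, adjusted p = 0.193).

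The Stat2 values of iEV-treated glands lay above irradiated glands on day 4 (0.40 ± 0.12, adjusted p = 0.462) and below them on day 30 (-0.34 ± 0.12, adjusted p = 0.218), without overlap on either day. The test of the difference between these changes, day 30 minus day 4, gave -0.73 ± 0.16 (adjusted p = 0.122). It was called by DESeq2 (adjusted p = 0.00966) and by edgeR without IR_4d replicate 2 (-0.89, adjusted p = 0.018).

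Of 9 tested IRF and STAT genes beyond the members, 0 passed by edgeR in IR_4d or IR_30d against NT, with iEVs on either day, or in IR_30d against IR_4d. DESeq2 called 1 in IR_30d against NT and 0 in the other 4. At an unadjusted p under 0.05, 3 were lower in IR_4d against NT, 1 was higher and 2 were lower in IR_30d against NT, and 3 were higher and 1 was lower in IR_30d against IR_4d. With iEVs 1 was higher at that level on day 4 and 0 passed it on day 30. Irf2, which competes with IRF1 for its sites, had 19.1 ± 1.45 CPM in NT and 21.5 ± 1.78 in IR_30d and did not pass (0.17 ± 0.11, adjusted p = 0.512).

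Irf7, the inducible amplifier of type I interferon production, had 9.94, 12.9 and 16.9 CPM in NT, 6.92, 6.49 and 5.49 in IR_4d, and 16.3, 17.9 and 16.9 in IR_iEV_4d. It had 27.4, 29.2 and 34.9 CPM in IR_30d and 27.8, 16.9 and 24.4 in IR_iEV_30d. The 3 IR_4d libraries were the lowest of the 15, and the highest library (IR_30d replicate 3) was 6.35-fold above the lowest (IR_4d replicate 3). The order of means was IR_4d, NT, IR_iEV_4d, IR_iEV_30d and IR_30d. IR_4d overlapped no other group, and each later neighbouring pair in that order overlapped.

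Irradiated glands of day 4 had less Irf7 than untreated glands: it fell by 1.07 on the log2 scale (SE 0.19, adjusted p = 0.00878), from 13.2 ± 3.47 to 6.30 ± 0.734 CPM. Without IR_4d replicate 3 the change was -0.99 (adjusted p = 0.0583), and with sublingual and adipose marker levels as covariates it was -0.84 (adjusted p = 0.164). Over all 12 alternatives the change lay between -1.46 and -0.84. Beside this fall, all 6 tested parotid markers had a higher fitted level in IR_4d than in NT (median log2 6.55), of which edgeR called 0 and DESeq2 6, with 5 at an unadjusted p under 0.05. The median of the 10 adipose markers was 2.58 there and 1.38 with iEVs on day 4, with 0 called by either tool in both and 0 and 2 at an unadjusted p under 0.05. The part of parotid tissue in the change was not tested. On day 30 irradiated glands had more than untreated ones, 30.5 ± 3.92 CPM, a rise of 1.20 ± 0.19 (adjusted p = 0.00139). This call held when any 1 library was left out. Between the 2 irradiated groups Irf7 was 2.27 ± 0.20 higher on day 30 (4.83-fold, adjusted p = 8.03e-06).

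iEV-treated glands had more Irf7 than irradiated ones on day 4 and values that overlapped theirs on day 30. On day 4 the level was 17.0 ± 0.822 CPM and the rise 1.43 ± 0.20 (2.70-fold, adjusted p = 0.0104). Leaving out any 1 IR_4d library, or IR_iEV_4d replicate 1 or 2, kept the size (1.34 to 1.51) and lost the call (adjusted p 0.051 to 0.147). With the sublingual-rich libraries left out, which leaves 1 library in each of these groups, it was 1.55 (adjusted p = 0.0578), with the spread taken from the other groups. With the 2 tissue covariates it was 1.42 (adjusted p = 0.0566). Against NT the IR_iEV_4d level did not pass (0.36 ± 0.19, adjusted p = 0.358).

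On day 30 the level in iEV-treated glands was 23.1 ± 5.61 CPM, with a change against IR_30d of -0.40 ± 0.18 (95% interval -0.79 to -0.01, adjusted p = 0.375). IR_iEV_30d replicate 2, 1 of the sublingual-rich libraries, was the lowest of that group. Against NT its change was 0.80 ± 0.19, just short of the threshold (adjusted p = 0.0513). Without NT replicate 3 it was 1.03 (adjusted p = 0.0106), and without IR_iEV_30d replicate 2 it was 0.99 (adjusted p = 0.00779).

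The iEV change in Irf7 differed between the days. The interaction term, the change on day 30 minus that on day 4, was -1.83 ± 0.27 (adjusted p = 0.00893), and 0.125% of all genes, 20 in number and all negative, were called for it. Irf7 was the single member called. Leaving out any 1 library kept this call. With the 2 tissue covariates the term was -1.76 (adjusted p = 0.127), and with the sublingual-rich libraries left out, again with 1 library in each day 4 group, it was -1.75 (adjusted p = 0.0647).

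**Figure D2:**
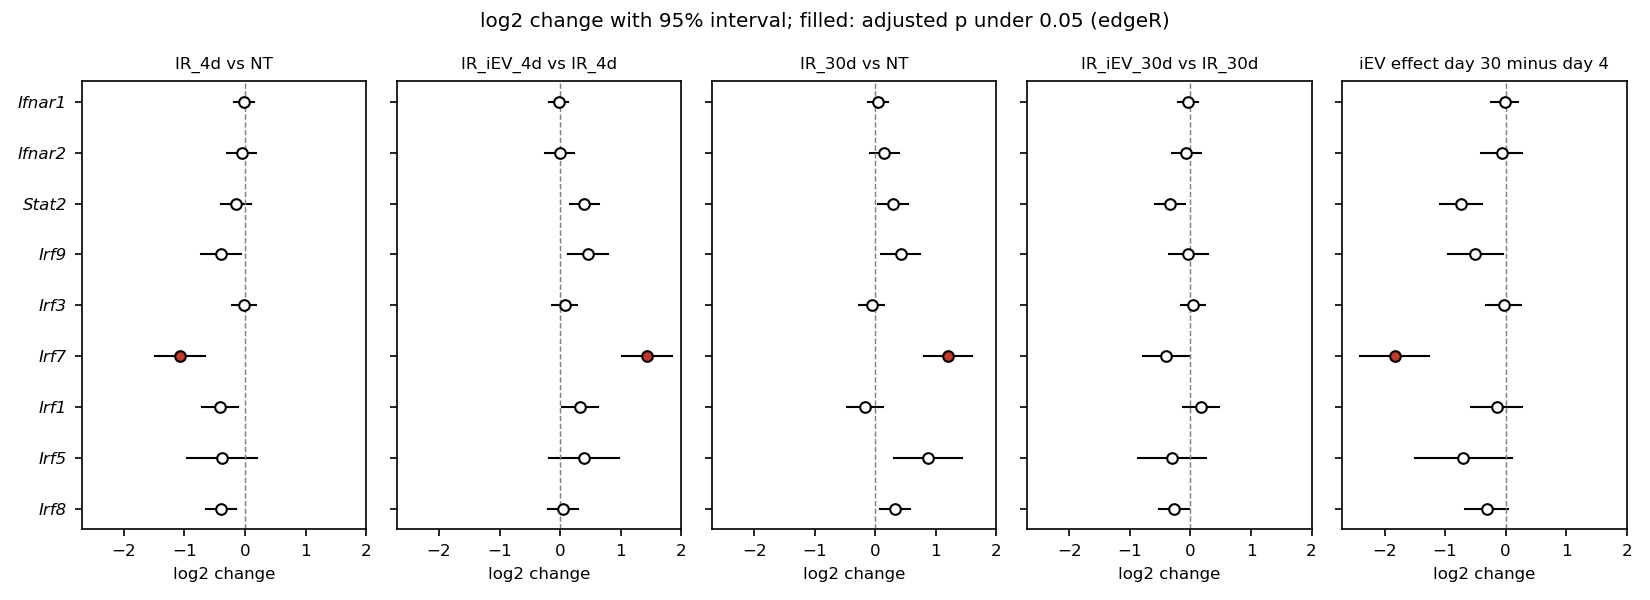
log2 change of each member (horizontal axes) in 4 comparisons and in the interaction of iEVs with day, with 95% intervals as lines and filled points for an adjusted p under 0.05. The filled points are those of Irf7, at -1.07, 1.43, 1.20 and -1.83, while the intervals of Ifnar1, Ifnar2 and Irf3 cross 0 in all 5 panels.

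Irf3, which sensors activate by phosphorylation, had 25.6, 31.1 and 27.8 CPM in NT, 24.5, 30.9 and 28.3 in IR_4d, and 29.9, 30.7 and 27.6 in IR_iEV_4d. It had 26.1, 28.0 and 26.9 CPM in IR_30d and 28.1, 28.1 and 27.3 in IR_iEV_30d. All groups overlapped, and the highest library was 1.27-fold above the lowest. The 95% intervals of its log2 change were -0.22 to 0.19 in IR_4d against NT and -0.26 to 0.14 in IR_30d against NT. They were -0.13 to 0.28 for iEV-treated against irradiated glands on day 4 and -0.16 to 0.25 on day 30.

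Of 22 tested sensors and adaptors that act upstream of IRF3 and IRF7, 0 passed in IR_4d against NT or in either comparison of iEV-treated with irradiated glands by edgeR, and DESeq2 called 1 in the first and 0 in the others. At an unadjusted p under 0.05 there were 1 higher and 1 lower in the first, 2 higher and 1 lower with iEVs on day 4, and 8 lower with iEVs on day 30. In IR_30d against NT, where 4.48% of all genes were called, 6 rose (list median 0.26). Unc93b1, which carries endosomal Toll-like receptors, went from 23.8 ± 1.54 to 37.2 ± 3.43 CPM (0.64 ± 0.09, adjusted p = 0.000577) and kept the call when any 1 library was left out. Dhx58, a regulator of RNA sensing (0.75 ± 0.18, adjusted p = 0.0242), and Sting1, the adaptor of cytosolic DNA sensing (0.52 ± 0.13, adjusted p = 0.029), lost it in 5 of 6 such fits each. Dhx58 kept it without NT replicate 3 alone (otherwise adjusted p 0.0626 to 0.101) and Sting1 without NT replicate 2 alone (0.0559 to 0.129). With 1 library left out 1 to 5 of these genes passed, 3 or fewer without NT replicate 1 or 2 or any 1 IR_30d library, 3 with the tissue covariates, and 1 with the sublingual-rich libraries left out, where Dhx58 was 0.69 (adjusted p = 0.0842) and Sting1 0.38 (adjusted p = 0.196).

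Irf1, induced mainly by interferon gamma, did not pass in any comparison. It had 15.3, 13.1 and 12.7 CPM in NT, 11.5, 10.2 and 9.16 in IR_4d, and 12.0, 13.8 and 12.6 in IR_iEV_4d. It had 12.1, 11.8 and 12.5 CPM in IR_30d and 11.3, 12.7 and 17.0 in IR_iEV_30d. The IR_4d libraries lay below all NT libraries, with a log2 change of -0.41 ± 0.14 (unadjusted p = 0.00908, adjusted p = 0.209). The other 4 groups had means of 12.1 to 13.7 CPM. NT and IR_30d did not overlap, with a change of -0.17 ± 0.14 (adjusted p = 0.634), and IR_iEV_30d overlapped both.

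Irf5 and Irf8, which act in monocytes, macrophages and dendritic cells, were higher in irradiated glands on day 30 than on day 4. Irf5 had the lowest counts of the 9 genes: 2.95, 3.14 and 4.09 CPM in NT, 1.92, 2.75 and 3.22 in IR_4d, and 3.60, 4.45 and 2.29 in IR_iEV_4d. It had 5.10, 8.00 and 5.63 CPM in IR_30d and 6.25, 5.29 and 3.69 in IR_iEV_30d. The 3 IR_30d libraries lay above all NT and day 4 libraries, and IR_iEV_30d overlapped both IR_30d and NT.

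The rise of Irf5 in IR_30d against IR_4d was 1.25 ± 0.27 (2.38-fold, adjusted p = 0.00969). It was lost without IR_4d replicate 1 (1.07, adjusted p = 0.0539), without IR_30d replicate 2 (1.03, adjusted p = 0.0602) and with the sublingual-rich libraries left out (0.95, adjusted p = 0.271). Against NT the change in IR_30d was 0.87 ± 0.27, which missed the threshold in edgeR (adjusted p = 0.0777) and passed it in DESeq2 (adjusted p = 0.0296). Between iEV-treated and irradiated glands it was 0.40 on day 4 (95% interval -0.19 to 0.98) and -0.30 on day 30 (-0.86 to 0.25).

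Irf8, needed for the development of monocytes and of type 1 dendritic cells, had 26.3, 38.2 and 37.1 CPM in NT, 25.3, 25.2 and 26.5 in IR_4d, and 27.1, 24.5 and 28.0 in IR_iEV_4d. It had 42.9, 45.1 and 39.7 CPM in IR_30d and 35.4, 38.4 and 32.4 in IR_iEV_30d. The 6 day 4 libraries and NT replicate 1 lay at 28.0 CPM or below and the other 8 at 32.4 or above, so IR_4d and IR_iEV_4d overlapped each other and NT, while IR_30d stood above every other group. NT replicate 1 is sublingual-rich.

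Irf8 rose in IR_30d against IR_4d (0.73 ± 0.12, adjusted p = 0.00116), a call that held when any 1 library was left out. In IR_4d against NT its change was -0.40 ± 0.12 (adjusted p = 0.122), and without NT replicate 1 it was called lower (-0.55, adjusted p = 0.00423). In IR_iEV_30d against IR_30d it was -0.26 ± 0.12 (unadjusted p = 0.0371, adjusted p = 0.355), with no overlap. In IR_iEV_4d against IR_4d it was 0.05 (95% interval -0.20 to 0.30).

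In IR_30d against IR_4d, where Irf5 and Irf8 rose, macrophage and monocyte markers had a median log2 change of 1.07. Dendritic cell markers had 1.78 there, and T and NK cell markers 1.43. In IR_iEV_30d against IR_30d the same 3 medians were -0.48, 0.08 and 0.07, beside -0.30 for Irf5 and -0.26 for Irf8, neither called. Of 19 macrophage and monocyte markers, all in the table, 12 were higher in IR_30d against NT (4.48% of all genes called) and 2 were lower in IR_4d against NT (1.4%). Their summed level was 284 to 342 CPM in NT libraries. On day 4 it was 268 to 293 CPM after irradiation alone and 283 to 331 with iEVs, and on day 30 it was 456 to 568 and 302 to 409. IR_30d stood above every other group, as it did for Irf8. The 9 dendritic cell markers summed to 13.6 to 20.1 CPM in NT, 8.91 to 11.7 in IR_4d, 11.9 to 14.5 in IR_iEV_4d, 19.6 to 20.9 in IR_30d and 17.8 to 22.4 in IR_iEV_30d. Of these 9, 2 were at 0 in each IR_4d library.

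Across the 15 libraries, the mean log2 level of the macrophage list had a Pearson r of 0.87 with Irf7, 0.84 with Irf5 and 0.83 with Irf8, and of 0.70 with Irf9, 0.47 with Stat2 and 0.14 with Irf1. The dendritic list had 0.90 with Irf8, 0.77 with Irf7 and 0.71 with Irf5. T and NK cell markers had 0.84 with Irf8, 0.72 with Irf5, 0.70 with Irf9 and 0.68 with Irf7, so the likeness was not limited to myeloid markers. Sublingual markers went the other way, with -0.64 for Irf8, -0.52 for Irf5, -0.51 for Irf7 and -0.44 for Irf9. Endothelial markers had -0.66 with Irf8, -0.37 with Irf9, -0.30 with Irf7 and -0.29 with Irf5. Adipose markers had -0.40 with Irf8, -0.28 with Irf9, -0.17 with Irf7 and -0.06 with Irf5. The libraries share groups, depth and tissue makeup, so these values are descriptions. Between IR_4d and IR_iEV_4d, where Irf7 was called, edgeR and DESeq2 both called 0 of the 19 macrophage markers. At an unadjusted p under 0.05, 7 were higher and 1 lower, and their median change was 0.27, beside 1.43 for Irf7. The dendritic median was 0.53 there and that of T and NK markers -0.07, with 0 called by either tool. In IR_iEV_30d against IR_30d edgeR called 1 macrophage marker lower and DESeq2 called 4, and 11 were lower at an unadjusted p under 0.05. In IR_4d against NT the dendritic median was -1.42 and the macrophage median -0.28, beside -1.07 for Irf7. Of the dendritic markers there, edgeR called 1, DESeq2 called 5, and 7 were lower unadjusted. B cell markers, of which 4 of 7 were in the table, summed to under 1 CPM in every library. T and NK cell markers summed to 5.47 to 6.57 CPM in NT, 2.60 to 3.35 in IR_4d, 2.36 to 3.63 in IR_iEV_4d, 7.01 to 8.80 in IR_30d and 8.27 to 11.1 in IR_iEV_30d. Both day 4 groups lay below NT and both day 30 groups above it. Of the 9 tested, 1 was called lower in IR_4d against NT (4 lower at an unadjusted p under 0.05) and 2 were called higher in IR_30d against IR_4d (7 higher). The part of these cells in the changes was not tested.

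**Figure D3:**
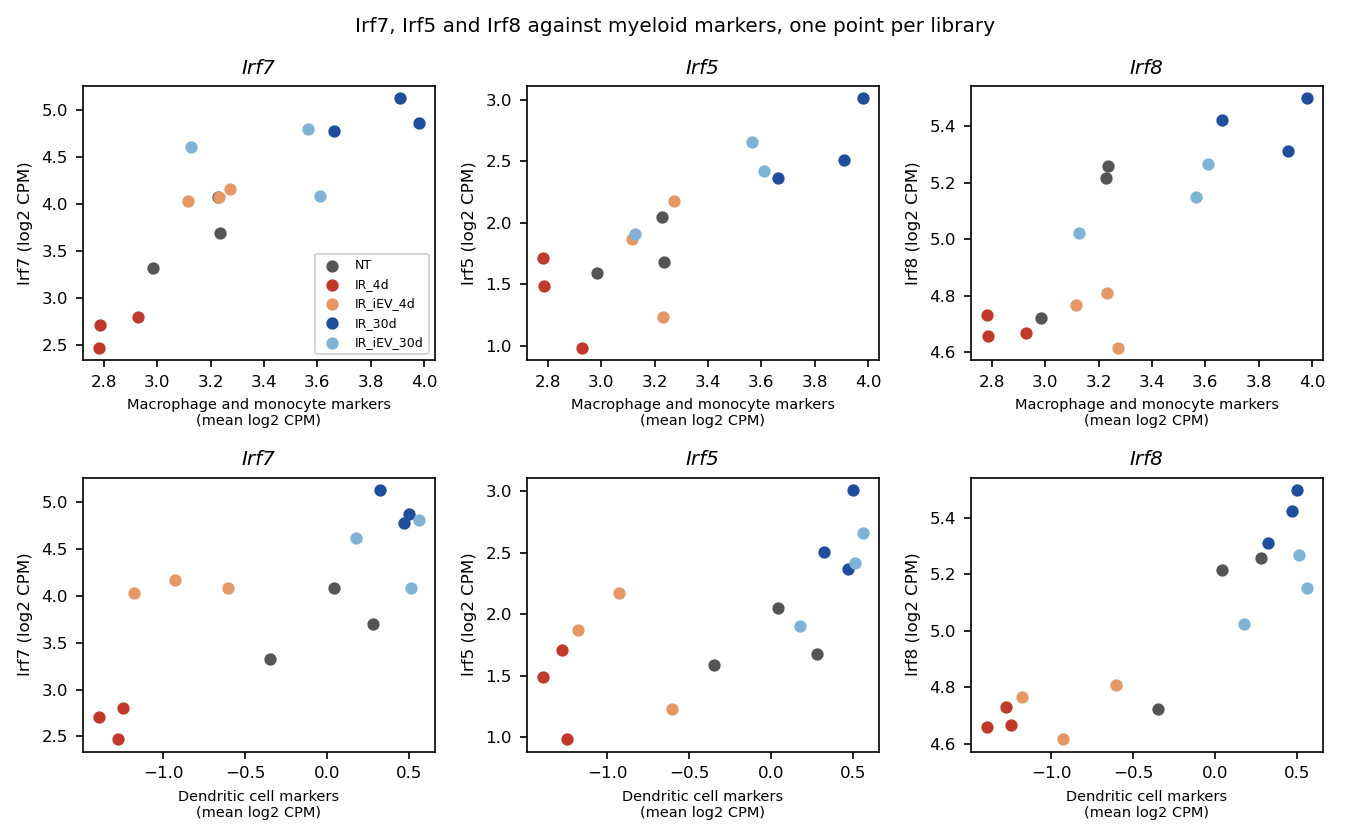
log2 CPM of Irf7, Irf5 and Irf8 (vertical axes) against the mean log2 CPM of macrophage and monocyte markers (upper panels) and of dendritic cell markers (lower panels), with 1 point per library coloured by group. The r of the 3 genes with the macrophage list are 0.87, 0.84 and 0.83, and the IR_iEV_4d points of Irf7 lie above the IR_4d points at macrophage marker levels of 3.12 to 3.27 against 2.78 to 2.93.

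Among genes known as targets of ISGF3 those that passed were lower on day 4 and higher on day 30 after irradiation. Of 37 tested, 6 fell in IR_4d against NT (list median -0.45) and 13 rose in IR_30d against NT (0.71). In IR_iEV_4d against IR_4d 3 rose (0.71), and in IR_iEV_30d against IR_30d 3 fell (-0.65). In IR_30d against IR_4d 31 rose (1.33, and 20 with the sublingual-rich libraries left out), and for the interaction of iEVs with day 7 were negative (-1.28). The shares of all tested genes called in these comparisons, in the same order and in either direction, were 1.4%, 4.48%, 0.0312%, 0.798%, 6.81% and 0.125%. The medians over all tested genes lay between -0.012 and -0.003 in these comparisons. The list was drawn up with results of these data known, so its direction is not independent evidence.

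On day 4 after irradiation the target genes that fell included Rtp4, a Golgi chaperone (-1.16 ± 0.21, adjusted p = 0.00731), Cmpk2, a mitochondrial nucleotide kinase (-1.30 ± 0.25, adjusted p = 0.00891), and Rsad2, the antiviral enzyme viperin (-1.13 ± 0.23, adjusted p = 0.0147). All 3 lost the call without NT replicate 3 (adjusted p 0.0539 to 0.0585). They lost it with the 2 tissue covariates too (0.0597 to 0.0794), where the changes were as large or larger, at -1.19, -1.33 and -1.26. Rtp4 and Rsad2 also lost it without IR_4d replicate 1 or 3 (0.0528 to 0.0738) and with the sublingual-rich libraries left out (-1.55 and -1.05, adjusted p 0.0578 and 0.211), and Rsad2 without IR_4d replicate 2 (0.0508). Instead of 6 there were 0 calls with NT replicate 3 left out, 1 with IR_4d replicate 1 or 3 left out, and 10 with NT replicate 1 left out. With the tissue covariates there were 0, with the sublingual-rich libraries left out 4, and DESeq2 called 12.

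On day 30 the target genes with the lowest p against NT were 3 antiviral genes. Oas3 and Oas2, synthetases that activate RNase L, went from 0.605 ± 0.194 to 4.23 ± 0.791 CPM (2.80 ± 0.34, adjusted p = 9.07e-05) and from 2.03 ± 0.315 to 8.36 ± 2.27 CPM (2.04 ± 0.26, adjusted p = 0.000175). Ifit3 went from 4.81 ± 1.23 to 13.6 ± 1.77 CPM (1.5 ± 0.20, adjusted p = 0.000201). These 3 kept the call when any 1 library was left out. The count of 13 ran from 9 to 20 over such fits, with 20 without NT replicate 3, and DESeq2 called 22. In IR_30d against NT, 5 of the 8 granular tubule markers were called higher and 1 lower, and in IR_iEV_30d against IR_30d 4 were called lower, so they moved in the same comparisons as these targets. Their part in the changes was not tested.

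With iEVs on day 4, Ifit3 went from 2.42 ± 0.217 to 6.97 ± 0.938 CPM (1.52 ± 0.21, adjusted p = 0.0104), Rtp4 from 1.89 ± 0.585 to 5.45 ± 0.312 (1.52 ± 0.21, adjusted p = 0.0104) and Bst2, the tether that holds back budding virus, from 6.72 ± 0.285 to 12.5 ± 1.04 (0.89 ± 0.14, adjusted p = 0.0376). With Irf7 they make 4 of the 5 genes called in that comparison. Ifit3 lost the call without any 1 IR_4d library or IR_iEV_4d replicate 1, and Rtp4 without IR_4d replicate 1 or 3 or IR_iEV_4d replicate 1 or 2 (adjusted p 0.051 to 0.147). Bst2 lost it without any 1 of these 6 libraries but IR_iEV_4d replicate 3 (0.125 to 0.286). The list's count fell from 3 to 0 without IR_4d replicate 1 or 3 or IR_iEV_4d replicate 1, and to 1 without IR_4d replicate 2 or IR_iEV_4d replicate 2. It was also 0 with the 2 tissue covariates and with the sublingual-rich libraries left out, while DESeq2 called 9. With the covariates, and with those libraries left out, the changes were 1.53 and 1.84 for Ifit3, 1.52 and 1.71 for Rtp4, and 0.77 and 0.80 for Bst2. With the replicate block Bst2 also lost the call (0.89, adjusted p = 0.104).

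With iEVs on day 30, Helz2, a helicase coactivator, went from 66.6 ± 7.73 to 42.4 ± 4.03 CPM (-0.65 ± 0.11, adjusted p = 0.0124), Ifit3 from 13.6 ± 1.77 to 6.49 ± 1.38 (-1.07 ± 0.19, adjusted p = 0.0145) and Oas2 from 8.36 ± 2.27 to 3.81 ± 0.803 (-1.14 ± 0.25, adjusted p = 0.0419). All 3 lost the call without IR_30d replicate 2 or 3, Helz2 and Oas2 without IR_iEV_30d replicate 1, and Ifit3 and Oas2 without IR_iEV_30d replicate 3 (adjusted p 0.0552 to 0.267). With the tissue covariates Helz2 (-0.64, adjusted p = 0.0682) and Ifit3 (-1.05, adjusted p = 0.0808) lost it at nearly the same size, and with the replicate block Oas2 lost it (-1.14, adjusted p = 0.0646). The count of 3 became 0 without IR_30d replicate 2 or 3 and 1 without IR_iEV_30d replicate 1 or 3 or with the tissue covariates, and DESeq2 called 11. For the interaction, Oas2 (-2.64 ± 0.37, adjusted p = 0.00395), Ifit3 (-2.60 ± 0.28, adjusted p = 0.000787) and Rtp4 (-2.30 ± 0.29, adjusted p = 0.00149) kept the call when any 1 library was left out. Rtp4 lost it with the tissue covariates (-2.30, adjusted p = 0.0638) and with the sublingual-rich libraries left out (-2.48, adjusted p = 0.0991), with no smaller change. The count of 7 ran from 4 (without IR_30d replicate 2) to 9 with 1 library left out. It was 2 with the tissue covariates or with the sublingual-rich libraries left out, and 19 with DESeq2.

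A list of genes under IRF1 and interferon gamma had members that rose on day 30, while Irf1 did not pass. Of 25 tested, 8 were higher in IR_30d against NT (list median 0.75) and 1, Ciita, the master regulator of MHC class II, was lower in IR_4d against NT (-1.19 ± 0.24, adjusted p = 0.0148). Tap1, which pumps peptides for MHC class I, went from 17.6 ± 3.05 CPM in NT to 33.1 ± 1.10 in IR_30d (0.91 ± 0.11, adjusted p = 8.1e-05). The guanylate-binding proteins Gbp3 (1.35 ± 0.20, adjusted p = 0.000824) and Gbp2 (1.23 ± 0.20, adjusted p = 0.00132) were higher too, and these 3 kept the call when any 1 library was left out. The count of 8 became 4 when NT replicate 1 or 2, or replicate 2 or 3 of IR_30d, was left out, and with the sublingual-rich libraries left out. It was 5 with the tissue covariates and 12 with DESeq2.

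With iEVs, 0 of the 25 passed on day 4 by edgeR or DESeq2 (list median 0.39, 12 higher at an unadjusted p under 0.05), and on day 30 Gbp3 fell (-0.97 ± 0.20, adjusted p = 0.0314, and the list median was -0.41). Gbp3 lost that call without any 1 IR_30d library or IR_iEV_30d replicate 3 (adjusted p 0.0561 to 0.169), with the tissue covariates (-0.97, adjusted p = 0.118), with the sublingual-rich libraries left out (-1.06, adjusted p = 0.0547) and with the replicate block (-0.98, adjusted p = 0.0506). DESeq2 called 4 of the list there. Ciita lost its call in IR_4d against NT without NT replicate 3 or IR_4d replicate 1 or 3 (adjusted p 0.0807 to 0.102), with the tissue covariates (-1.22, adjusted p = 0.105) and with the sublingual-rich libraries left out (-1.64, adjusted p = 0.058). In IR_30d against IR_4d, where 6.81% of all genes were called, 20 of the 25 were higher (1.15), led by Ciita, which went from 1.43 ± 0.403 to 5.66 ± 0.865 CPM (1.98 ± 0.24, adjusted p = 0.000107). That count was 12 with the tissue covariates, 10 with the sublingual-rich libraries left out and 11 without IR_4d replicate 1. Of the IR_30d libraries, leaving out replicate 2 gave 9 and leaving out replicate 3 gave 13.

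Of 14 negative regulators of the pathway, 1 rose in IR_30d against NT and 0 passed in IR_4d against NT or with iEVs on either day by edgeR (list medians 0.15, -0.04, 0.05 and -0.05). DESeq2 called 1 in each of the last 3, and an unadjusted p under 0.05 was met by 2 lower, by 1 higher and 1 lower, and by 1 lower. Ptpn6, the phosphatase SHP-1 of blood cells, went from 14.5 ± 2.06 to 19.8 ± 1.89 CPM (0.45 ± 0.11, adjusted p = 0.0302), a call lost when NT replicate 1 or 2, or replicate 2 or 3 of IR_30d, was left out (adjusted p 0.0783 to 0.147). It was also lost with the tissue covariates (0.36, adjusted p = 0.1) and with the sublingual-rich libraries left out (0.42, adjusted p = 0.17). In IR_30d against IR_4d 3 rose, and the largest change was that of Usp18, the protease that blocks IFNAR2 signalling, from 1.74 ± 0.364 to 7.96 ± 1.42 CPM (2.19 ± 0.32, adjusted p = 0.000587).

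**Figure D4:**
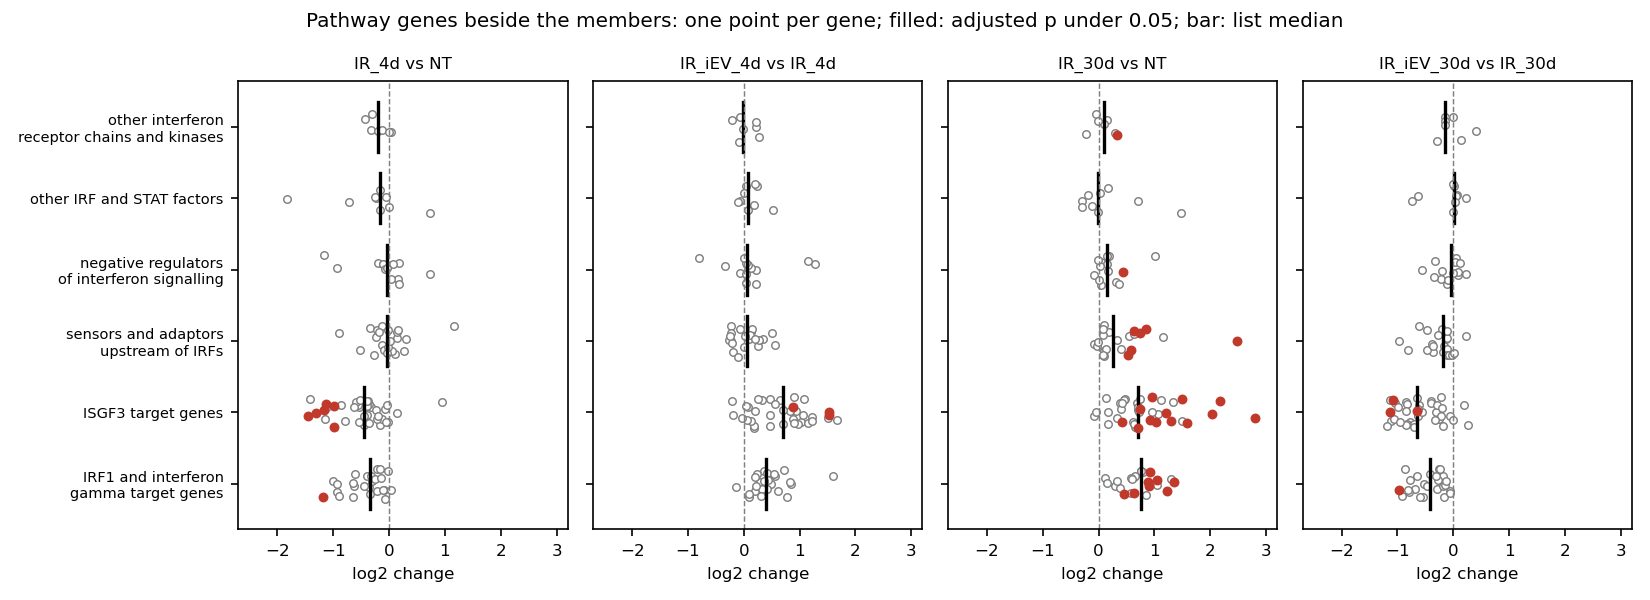
log2 change (horizontal axes) of every tested gene of 6 pathway lists in 4 comparisons, with filled points for an adjusted p under 0.05 and a bar at the list median. The medians of the ISGF3 targets lie at -0.45, 0.71, 0.71 and -0.65, while those of the other IRF and STAT genes lie between -0.17 and 0.08.

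The genes whose log2 CPM over the 15 libraries was most like that of a member were looked up for the 3 members with the largest spread, among 11291 genes with a mean of at least 2 CPM. For Irf7 they were Usp18 (r 0.96), Oas1a (0.94), Lgals3bp (0.94), Oasl2 (0.94) and Ms4a6b (0.93). For Irf9 they were Oasl2 (0.95), Adar (0.94), Usp18 (0.94), Trim25 (0.93) and Irgm2 (0.91). For Irf5 they were Hcls1 (0.91), H2-T24 (0.90), Plbd1 (0.89), Ctss (0.89) and Ptpn6 (0.88). Among the members the closest pair was Irf7 and Irf9 (0.90), and Irf3 had an r between -0.25 and 0.20 with each of the others.

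Per kilobase of exon the members stood in a different order in different groups. On this scale NT glands had most Irf3 (8.18 ± 0.801 CPM per kb), then Stat2 (6.84 ± 0.532), Ifnar2 (6.47 ± 0.563), Ifnar1 (5.73 ± 0.229), Irf8 (4.80 ± 0.931), Irf9 (3.97 ± 0.907), Irf7 (3.50 ± 0.920), Irf1 (3.45 ± 0.357) and Irf5 (1.17 ± 0.209). Of neighbours in that order, Irf1 and Irf5 differed by more than the sum of their SDs, Irf3 and Stat2 by about that sum, and the others by less. In IR_4d Irf7 was the lowest but Irf5, at 1.67 ± 0.194 CPM per kb. In IR_30d it had 8.07 ± 1.04, between Stat2 (8.40 ± 0.445) and Irf3 (7.85 ± 0.288) and within the SD of both. Exonic lengths came from the preceding mouse build and are the union of the exons of all transcripts of a gene. For Irf7 that union, 3776 bases, takes in the whole gene from its first to its last base, introns included. The levels are therefore approximate, and the order of members depends on this choice of length.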

How the data were processed

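RNA was measured in 15 mouse submandibular gland libraries, 5 groups of 3, made with a directional kit per the labels' protocols. The authors deposited whole-number read counts per gene symbol in 1 table. The submitters' processing notes name TopHat, HTSeq, DESeq2 and build GRCm39. Versions, annotation, strand setting and the handling of reads with several positions are not given in the sources used here, so reads from overlapping or antisense genes may be shared.

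Tests used edgeR 4.0.16 (R 4.3.3) on the counts as deposited, scaled by TMM, after a low-count filter (minimum count 10, minimum total 15). All 15 libraries entered 1 robust quasi-likelihood model, tested by F (10 residual degrees of freedom). P-values were adjusted by Benjamini-Hochberg over 16042 genes within each of 8 comparisons, at 0.05. The SE is the log2 change divided by the root of F. CPM are read counts relative to the TMM-scaled library total, computed by edgeR. Precision is limited by 3 libraries a group as well as by depth. The test was also run on counts simulated with the spread estimated from these data and no differences in tissue makeup. That run cannot speak to calls that depend on tissue makeup.

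The members and gene lists were chosen with earlier results of these data known. Besides the 9 members, the genes named are up to 3 per pathway list with the lowest p among those past the threshold in a comparison, Jak1, Tyk2 and Irf2, and the 5 genes most like each of the 3 members of largest spread. Ligands were looked up by symbol. A further pathway gene is not reported here. Alternatives were DESeq2 1.42.0, its size factors in edgeR, no low-count filter, the replicate number as a block, sublingual and adipose marker levels as 2 covariates, leaving out the sublingual-rich libraries, and leaving out each library in turn. Promoters and exonic lengths came from RefSeq and GENCODE tables of build GRCm38, and no coordinates were converted.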

Additional observations from a re-analysis of the deposited data

Results flagged for a closer look

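The change of Irf7 between iEV-treated and irradiated glands differed between the 2 collection days, by the test of the difference itself. With iEVs given once a week from day 1, collection day and number of doses cannot be told apart, nor can injection and iEVs. The interaction term was -1.83 on the log2 scale (edgeR, adjusted p = 0.00893). All 3 IR_iEV_4d libraries, at 16.3 to 17.9 CPM, lay above all 3 IR_4d libraries, at 5.49 to 6.92 CPM. On day 30 the IR_iEV_30d libraries, at 16.9 to 27.8 CPM, overlapped IR_30d at 27.4 to 34.9 CPM. The sign was the same in every alternative tried, and the call was lost at nearly the same size with the sublingual and adipose covariates (-1.76, adjusted p = 0.127) and with the sublingual-rich libraries left out (-1.75, adjusted p = 0.0647). The second of these fits has 1 library in each day 4 group, whose spread is taken from the other groups. IR_iEV_30d replicate 2, the lowest of its group, is 1 of those libraries.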

How the results depend on the processing

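Over 945 combinations of a member, a comparison and an alternative, 848 kept their direction and their side of the threshold, 21 lost a call and 11 gained one. A further 65 changed sign, with no call in either fit (adjusted p of at least 0.589), and no called change was reversed. The number of members called in IR_4d against NT was 1, and 0 with sublingual and adipose covariates. In IR_30d against NT it was 1, and 2 with DESeq2, which added Irf5. In IR_iEV_4d against IR_4d it was 1, and 0 with the covariates and 0 with the sublingual-rich libraries left out. In IR_iEV_30d against NT it was 0, and 1 (Irf7) with DESeq2, with the covariates and with the sublingual-rich libraries left out. In IR_30d against IR_4d it was 5, and 3 with the covariates, which lost Irf9 and Stat2. For the interaction it was 1, and 2 with DESeq2, 0 with the covariates and 0 with the sublingual-rich libraries left out. Leaving out 1 library gave 0 to 2 members in IR_4d against NT, 1 to 2 in IR_30d against NT, 0 to 1 in IR_iEV_4d against IR_4d, 0 to 0 in IR_iEV_30d against IR_30d, 0 to 1 in IR_iEV_4d against NT, 0 to 1 in IR_iEV_30d against NT, 3 to 5 in IR_30d against IR_4d and 1 to 2 for the interaction. Where these counts changed, the cause was not tested. Over all genes, DESeq2 called 480, 1128, 32, 408, 865, 422 and 119 genes where edgeR called 224, 718, 5, 128, 371, 177 and 20 (IR_4d and IR_30d against NT, iEVs against irradiation on day 4 and day 30, IR_iEV_4d and IR_iEV_30d against NT, and the interaction). With the covariates edgeR called 81, 491, 0, 33, 66, 206 and 4, and 513 in place of 1092 in IR_30d against IR_4d. With the sublingual-rich libraries left out it called 129, 491, 5, 317, 327, 104 and 7, and 374 in IR_30d against IR_4d. The cutoff for those libraries, a mean log2 CPM above 4, was chosen after the data were seen, because the planned cutoff of 2 left no day 4 library and so gave no value for the day 4 comparisons. With that planned cutoff the all-gene counts were 260 in IR_30d against NT, 119 in IR_iEV_30d against IR_30d and 57 in IR_iEV_30d against NT, and the member counts were as reported. Among the named genes, Jak1, Ptpn6, Dhx58, Sting1 and Gbp3 then lost the call in IR_30d against NT (adjusted p 0.0688 to 0.383). Helz2, Oas2 and Gbp3 lost it in IR_iEV_30d against IR_30d (0.102 to 0.219). The replicate numbers pair no libraries by this check, in which 5 of 30 pairs of equal number had a correlation above 0.1 (r -0.29 to 0.19). With the replicate block the Irf7 changes were -1.05, 1.20 and 1.43 in IR_4d against NT, IR_30d against NT and IR_iEV_4d against IR_4d, and -1.83 for the interaction, all still called. The block moved the number of members called from 5 to 4 in IR_30d against IR_4d (Stat2, adjusted p = 0.0509), the sensor genes called in IR_30d against NT from 6 to 3, and all genes called with iEVs from 5 to 3 on day 4 and from 128 to 83 on day 30, where the named calls of Bst2 on day 4 and of Oas2 and Gbp3 on day 30 were lost. Irf5, at 65 to 279 counts per library, has the least depth of the 9 and the widest intervals.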
